A study of Mus musculus with 18 samples.

Results

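The Schlafen family of the mouse was described here by 7 protein-coding genes, Slfn1, Slfn2, Slfn3, Slfn4, Slfn5, Slfn8 and Slfn9, taken by symbol as a family, with earlier results of these data known, out of 13598 genes that had a value in the series. All 7 lie on chromosome 11 (GRCm38), in 264 kb between 82951349 and 83215154. RNA-seq was carried out on peritoneal macrophages from TLR4-WT mice and from mice of the mutant lines TLR4-K730R and TLR4-K810R. The cells were mock-treated or received LPS, the bacterial lipopolysaccharide that TLR4 senses, at 100 ng/ml for 6 h. Each of the 6 groups held 3 libraries. The mutant mice carry a CRISPR/Cas9-made lysine-to-arginine change in the cytoplasmic TIR domain of TLR4 on a C57BL/6 background, and the methods describe recruitment of the cells with thioglycolate before lavage. Neither age and sex of the mice nor whether the libraries came from separate animals was given, so p-values measure the spread between these libraries only. The files hold FPKM values, which are fragments per kilobase of transcript scaled to the fragments of the library, and depth is unknown because counts of reads are not among them. The amino acid change itself cannot be checked with such values.

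Schlafen genes are known as interferon-stimulated genes of immune cells, and take their name from a growth-arrest phenotype of thymocytes. The encoded proteins share a Slfn core domain, to which the intermediate-length members add a linker region and the long members a helicase-like region, and several Schlafen proteins cut or bind tRNA. TLR4 reaches such genes by its TRIF branch: interferon beta is made and secreted, and its receptor activates transcription factors that bind interferon-stimulated response elements. Coding lengths in the annotation placed Slfn1 (1011 bases) and Slfn2 (1134 bases) among the short members, Slfn4 (1806 bases) and Slfn3 (1920 bases) among the intermediate ones, and Slfn5 (2652 bases), Slfn8 (2730 bases) and Slfn9 (2730 bases) among the long ones.

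The 160 bases before the RefSeq start of each member (GRCm38.p6, printed along the gene's own strand) are shown because the long members differ from the others in the letters found there. Capitals mark matches, on either strand, to GAAA, any 2 bases, GAAA, the core of an interferon-stimulated response element, or to ACTTCCTG, an ETS-type core, and these motifs do not overlap each other in any member. The ETS-type core was chosen after the sequences had been seen. The short members each held ACTTCCTG.
Slfn1 promoter, chr11:83116660-83116819, plus strand: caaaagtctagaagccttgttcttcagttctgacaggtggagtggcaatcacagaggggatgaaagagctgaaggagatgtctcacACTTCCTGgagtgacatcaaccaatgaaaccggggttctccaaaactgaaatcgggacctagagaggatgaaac
Slfn2 promoter, chr11:83064952-83065111, plus strand: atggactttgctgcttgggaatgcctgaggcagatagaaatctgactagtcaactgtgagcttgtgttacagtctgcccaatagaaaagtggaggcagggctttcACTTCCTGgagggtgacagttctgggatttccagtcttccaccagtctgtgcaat
The intermediate members also held ACTTCCTG, and Slfn3 held it a second time on the other strand as CAGGAAGT.
Slfn3 promoter, chr11:83191170-83191329, plus strand: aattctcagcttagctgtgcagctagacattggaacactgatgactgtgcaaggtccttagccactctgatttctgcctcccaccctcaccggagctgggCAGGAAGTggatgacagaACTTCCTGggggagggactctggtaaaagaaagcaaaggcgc
Slfn4 promoter, chr11:83175026-83175185, plus strand: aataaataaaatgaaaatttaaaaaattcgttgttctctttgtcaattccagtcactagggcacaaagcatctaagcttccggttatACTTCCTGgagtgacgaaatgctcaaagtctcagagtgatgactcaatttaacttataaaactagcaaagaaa
The long members held the response element core instead.
Slfn5 promoter, chr11:82951942-82952101, plus strand: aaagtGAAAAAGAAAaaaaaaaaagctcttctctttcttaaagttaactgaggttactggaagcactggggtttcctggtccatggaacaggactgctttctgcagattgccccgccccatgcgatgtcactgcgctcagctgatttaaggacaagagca
Slfn8 promoter, chr11:83020811-83020970, minus strand: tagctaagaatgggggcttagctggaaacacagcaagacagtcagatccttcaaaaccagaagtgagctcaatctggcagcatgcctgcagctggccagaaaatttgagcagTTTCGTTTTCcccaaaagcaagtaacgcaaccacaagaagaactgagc
Slfn9 promoter, chr11:82991831-82991990, minus strand: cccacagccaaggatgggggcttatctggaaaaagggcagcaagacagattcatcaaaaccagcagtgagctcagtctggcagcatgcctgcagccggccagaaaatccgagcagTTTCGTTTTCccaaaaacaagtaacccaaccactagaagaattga
Over windows of 300 bases, from 250 before to 50 after the start, the response element core was present in 3.44% of 32851 RefSeq promoters and in 3 of the 7 members. ACTTCCTG was present in 3.33% of promoters and in the other 4 members. In Slfn8 and Slfn9 the response element core started 48 and 45 bases before the start, whereas in Slfn5 it started 155 bases before it. The letters TTCNNNGAA of a gamma-activated site (8.3% of promoters) and the kappaB site written as GGGA, any 2 bases, TTCC (1.47%) were found in 0 members. A match is a description of letters only.

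Near-identical copies limit what can be told apart within the family. Slfn3 and Slfn4 shared 92.1% of aligned coding bases, and Slfn8 and Slfn9 shared 92.7%, compared with 70.3% for Slfn1 and Slfn2. Of all stretches of 50 bases in the transcript, 17.6% of those of Slfn9, 16.6% of those of Slfn8, 13.1% of those of Slfn3 and 8.95% of those of Slfn4 also occurred in another family gene. For Slfn1 the share was 0.606% and for Slfn5 it was 0.0%. The values of Slfn3, Slfn4, Slfn8 and Slfn9 are therefore uncertain where reads were divided between copies.

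The gene numbers in the files did not separate the family correctly. Each deposited value belongs to a transcript event, such as a first or last exon, filed under an Ensembl gene number, and a gene was given, in each library, whichever was larger of the FPKM summed over its first exons and that summed over its last exons. Under their own number, only Slfn2, Slfn3, Slfn4 and Slfn5 had events on their own strand. A first and a last exon filed under Slfn8 lay on the other strand, were listed in 3 libraries at 0.627 to 1.60 FPKM, and were left out. The last exon of Slfn1 (83121021 to 83122670) was filed under the number of Slfn4 in 18 of 18 libraries, and the exons of Slfn8 and Slfn9 were filed under the number of the pseudogene Slfn10-ps. Events were therefore also assigned by position, to the gene on the same strand with the most exonic bases, over the whole table. This step was added after the data had been seen, and gave values for all 7 members. The values of Slfn1, Slfn8 and Slfn9 below come from it, and those of the other 4 members did not change by it. No first exon was listed within Slfn1 or Slfn2, and no last exon within Slfn9.

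**Figure D1:**
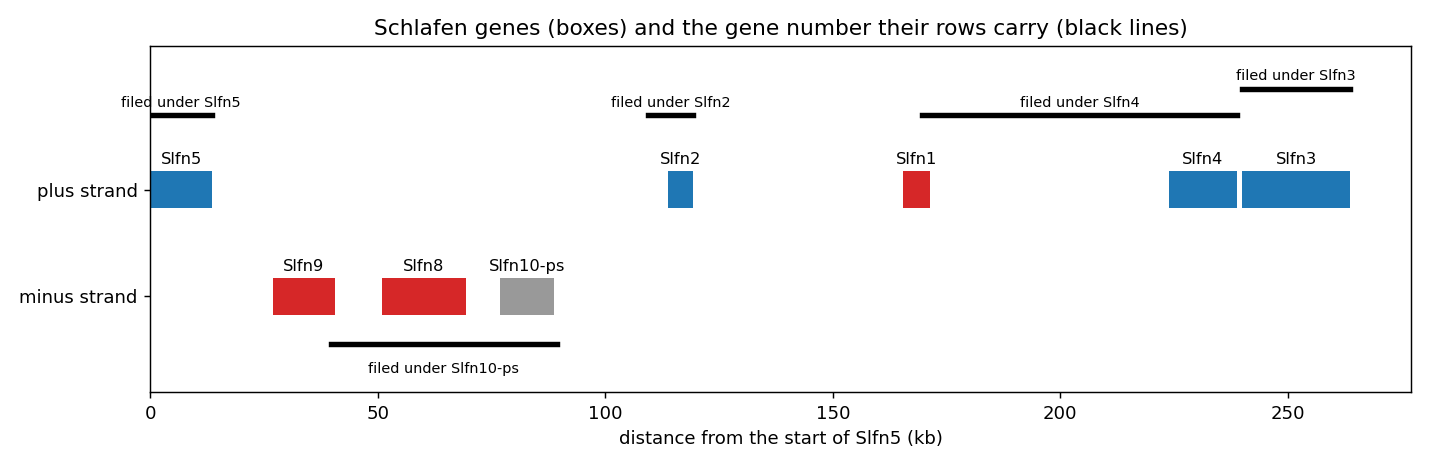
The 7 Schlafen genes and the pseudogene Slfn10-ps drawn to scale by strand, with the distance from the start of Slfn5 in kb on the x axis. Black lines span the events filed under each gene number: the line filed under Slfn4 begins at the last exon of Slfn1, and the line filed under Slfn10-ps covers Slfn8 and part of Slfn9 (red boxes, genes without usable values under their own number).

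In mock-treated TLR4-WT macrophages the levels spanned from about 1 to over 100 FPKM. Slfn2, whose loss disturbs the quiescence of T cells and monocytes in mice, was the most abundant member, at 148 ± 16.0 FPKM (mean ± SD, n = 3, as for all means below). Slfn5, a nuclear long member, followed at 62.7 ± 11.9, then Slfn8 at 11 ± 2.14 and Slfn1 at 7.50 ± 1.07. Slfn4 (2.50 ± 0.865), Slfn3 (2.08 ± 1.06) and Slfn9 (1.07 ± 0.107) were the lowest, and the libraries of Slfn4 and Slfn3 overlapped, as did those of Slfn3 and Slfn9. After LPS the order in TLR4-WT was Slfn2 (615 ± 91.1), Slfn4 (249 ± 113), Slfn5 (169 ± 46.9), Slfn1 (85.0 ± 18.5), Slfn8 (80.4 ± 14.0), Slfn9 (5.88 ± 2.15) and Slfn3 (3.78 ± 0.832). The libraries of the neighbours Slfn4 and Slfn5, Slfn1 and Slfn8, and Slfn9 and Slfn3 overlapped in that order.

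**Figure D2:**
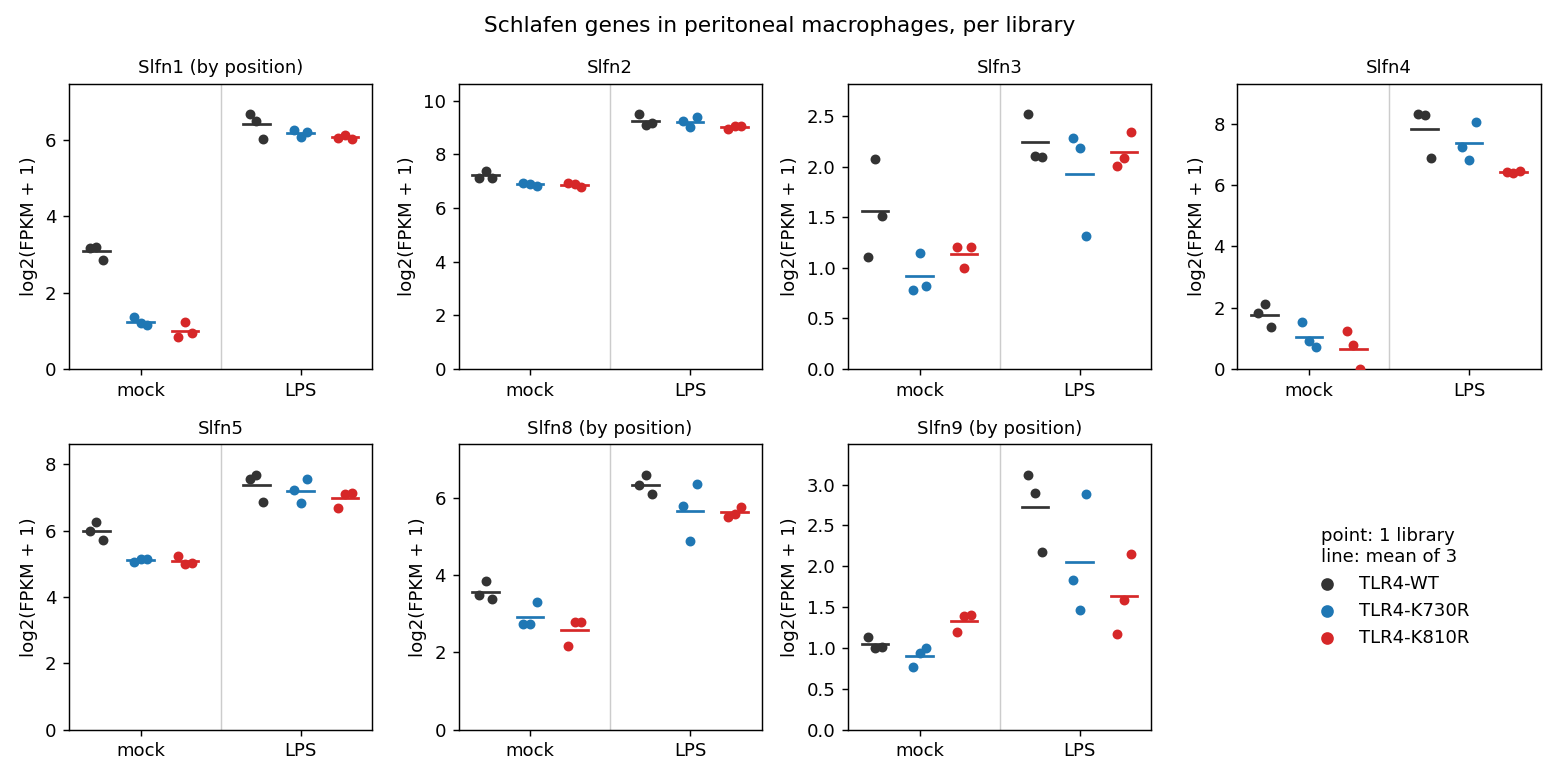
Level of each Schlafen gene in each of the 18 libraries as log2(FPKM + 1), with mock-treated groups on the left and LPS-treated groups on the right of each panel. Points are libraries and short lines are means of 3; the mock-treated mutant libraries of Slfn1 lie between 0.785 and 1.56 FPKM, below the TLR4-WT libraries at 6.27 to 8.18.

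Most Schlafen genes rose after LPS in every genotype. With limma on log2(FPKM + 1) and Benjamini-Hochberg adjustment over all genes tested, called at an adjusted p below 0.01, events assigned by position gave 6 of 7 members called higher in TLR4-WT, against 10.5% of the 10340 genes tested. The counts were 7 of 7 for TLR4-K730R (9.39% of all genes) and 6 of 7 for TLR4-K810R (9.06%). With any single library of the compared groups left out, they were 6 in TLR4-WT, 5 to 6 for TLR4-K730R and 5 for TLR4-K810R. By gene number, 3 of the 4 members with a value were called in TLR4-WT (10.4% of 9707 genes), 4 of 4 for TLR4-K730R (9.32%) and 4 of 4 for TLR4-K810R (9.08%). All 7 members passed the filter of at least 1 FPKM in 3 libraries, which a gene low in mock can pass through its LPS-treated groups. The median of all genes tested moved by -0.28, -0.36 and -0.26 on this scale in the 3 genotypes, so the rises stand against a median slightly below 0.

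Slfn4, which marks a population of interferon-responsive myeloid cells in the inflamed stomach, had the largest rise of the 7. Its mock-treated libraries held 2.55, 3.33 and 1.60 FPKM in TLR4-WT, 1.86, 0.895 and 0.637 for TLR4-K730R, and 1.35, 0.700 and 0 for TLR4-K810R. The LPS-treated libraries held 318, 310 and 118 FPKM in TLR4-WT, 151, 111 and 266 for TLR4-K730R, and 84.9, 83.6 and 87.5 for TLR4-K810R. Mock-treated and LPS-treated libraries were far apart in each genotype, the third TLR4-WT library was low among its group, and the TLR4-K810R libraries were the closest to each other. The log2 difference between LPS and mock was 6.06 ± 0.40 (SE, adjusted p = 5.48e-09 in limma) in TLR4-WT, 6.32 ± 0.40 (2.93e-09) for TLR4-K730R and 5.77 ± 0.40 (9.76e-09) for TLR4-K810R. In TLR4-WT the ratio of mean FPKM was 99.6.

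Slfn1, the founding short member, was raised in all genotypes from unequal baselines. In TLR4-WT the mock-treated libraries held 8.06, 8.18 and 6.27 FPKM and the LPS-treated libraries 101, 89.8 and 64.6. In TLR4-K730R mock values were 1.56, 1.30 and 1.21 FPKM and LPS values 75.1, 66.8 and 73.5. In TLR4-K810R mock values were 0.785, 1.35 and 0.911 FPKM and LPS values 65.4, 69.0 and 64.0. The mutant libraries started lower than the TLR4-WT libraries without overlap, and ended within or near their range. The limma difference was 3.32 ± 0.16 (adjusted p = 1.43e-10) in TLR4-WT, 4.95 ± 0.16 (1.85e-12) for TLR4-K730R and 5.07 ± 0.16 (1.86e-12) for TLR4-K810R, with ratios of mean FPKM of 11.3, 52.8 and 64.8.

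Slfn2, the other short member, rose by a similar amount in the 3 genotypes. Mock-treated libraries held 139, 166 and 138 FPKM in TLR4-WT, 121, 119 and 112 for TLR4-K730R and 120, 119 and 109 for TLR4-K810R. LPS-treated libraries held 719, 548 and 578 FPKM in TLR4-WT, 597, 521 and 673 for TLR4-K730R and 489, 533 and 527 for TLR4-K810R. The treated and untreated libraries did not overlap. The log2 difference was 2.04 ± 0.12 (adjusted p = 1.77e-09), 2.33 ± 0.12 (3.4e-10) and 2.15 ± 0.12 (9.23e-10) in limma, in the order TLR4-WT, TLR4-K730R and TLR4-K810R.

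Slfn3, the intermediate member linked to T cell quiescence and intestinal differentiation, stayed below 5 FPKM in every library. In TLR4-WT it held 1.15, 3.23 and 1.86 FPKM in mock and 4.74, 3.31 and 3.28 after LPS, and its highest mock library lay just below its lowest LPS library. In TLR4-K730R it held 0.713, 1.22 and 0.766 in mock and 3.86, 3.56 and 1.49 after LPS, and in TLR4-K810R 1.31, 0.998 and 1.31 in mock and 3.01, 3.25 and 4.08 after LPS. The difference of 0.68 ± 0.26 in TLR4-WT was not called (adjusted p = 0.0439 in limma), whereas those of 1.01 ± 0.26 in TLR4-K730R (0.00457) and 1.0 ± 0.26 in TLR4-K810R (0.00579) were called. A difference between the genotypes in this response was not called (0.34 ± 0.37 and 0.33 ± 0.37, adjusted p = 0.898 and 0.745). The calls in the mutants were lost without K730R LPS replicate 1 (0.0271) or 2 (0.0234), without K730R mock replicate 1 (0.0197) or 3 (0.0173), and without any 1 of the 6 K810R libraries (0.0109 to 0.0276). They were also lost for TLR4-K730R with only the groups compared in the fit (0.0241) and for TLR4-K810R with no filter on low values (0.0101). The TLR4-WT response was called without WT mock replicate 2, which held 3.23 FPKM (0.93), with median-of-ratios scaling (0.92, adjusted p = 0.00839) and with library weights (0.96, 0.00327). With single libraries left out, this difference ranged from 0.44 to 0.93 and its adjusted p in limma reached 0.203.

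Among the long members, Slfn5 rose by less than Slfn8. Slfn5 held 62.0, 75.0 and 51.3 FPKM in mock-treated TLR4-WT, 32.3, 34.4 and 34.1 for TLR4-K730R and 36.5, 30.9 and 31.3 for TLR4-K810R. After LPS it held 187, 204 and 116 FPKM in TLR4-WT, 148, 114 and 186 for TLR4-K730R and 102, 137 and 141 for TLR4-K810R. Mutant mock libraries were all below those of TLR4-WT, while the LPS-treated libraries overlapped between genotypes. The limma differences between LPS and mock were 1.39 ± 0.21 (adjusted p = 6.39e-05), 2.09 ± 0.21 (7.94e-07) and 1.91 ± 0.21 (2.79e-06) in TLR4-WT, TLR4-K730R and TLR4-K810R. An antisense gene, Slfn5os, overlaps Slfn5 in the annotation, and whether the library preparation kept strand was not stated.

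Slfn8 held 10.2, 13.4 and 9.32 FPKM in mock-treated TLR4-WT and 78.9, 95 and 67.2 after LPS. In TLR4-K730R it held 5.66, 5.62 and 8.89 FPKM in mock and 53.7, 28.4 and 80.1 after LPS, and in TLR4-K810R 3.49, 5.93 and 5.92 in mock and 44.5, 47.0 and 53.0 after LPS. The groups did not overlap in any genotype, and the LPS-treated TLR4-K730R libraries were the most scattered. The differences were 2.76 ± 0.29 (adjusted p = 1.36e-06 in limma), 2.74 ± 0.29 (1.44e-06) and 3.03 ± 0.29 (5.76e-07).

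Slfn9, the near-copy of Slfn8, was measured by first exons only and was low throughout. It held 1.19, 0.996 and 1.02 FPKM in mock-treated TLR4-WT and 7.68, 6.46 and 3.50 after LPS. In TLR4-K730R it held 0.701, 0.917 and 0.998 in mock and 2.55, 1.75 and 6.36 after LPS, and in TLR4-K810R 1.29, 1.62 and 1.65 in mock and 1.26, 2.0 and 3.42 after LPS. Treated and untreated libraries overlapped in TLR4-K810R only. It was called higher in TLR4-WT (1.68 ± 0.32, adjusted p = 0.000476 in limma) and TLR4-K730R (1.15 ± 0.32, 0.0075), and not in TLR4-K810R (0.30 ± 0.32, 0.477), but the difference between the TLR4-K810R and TLR4-WT responses was not called (-1.38 ± 0.45, adjusted p = 0.217). The call in TLR4-K730R was lost with the replicate number as a block (0.0107), with no filter on low values (0.0134), with only the groups compared in the fit (0.0354), without K730R LPS replicate 1 (0.0114) or 3 (0.0447), and without K730R mock replicate 1 (0.0276), 2 (0.0191) or 3 (0.0163). Without K730R LPS replicate 3 the difference fell to 0.74, and in the other fits that lost the call it was 1.09 to 1.27.

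**Figure D3:**
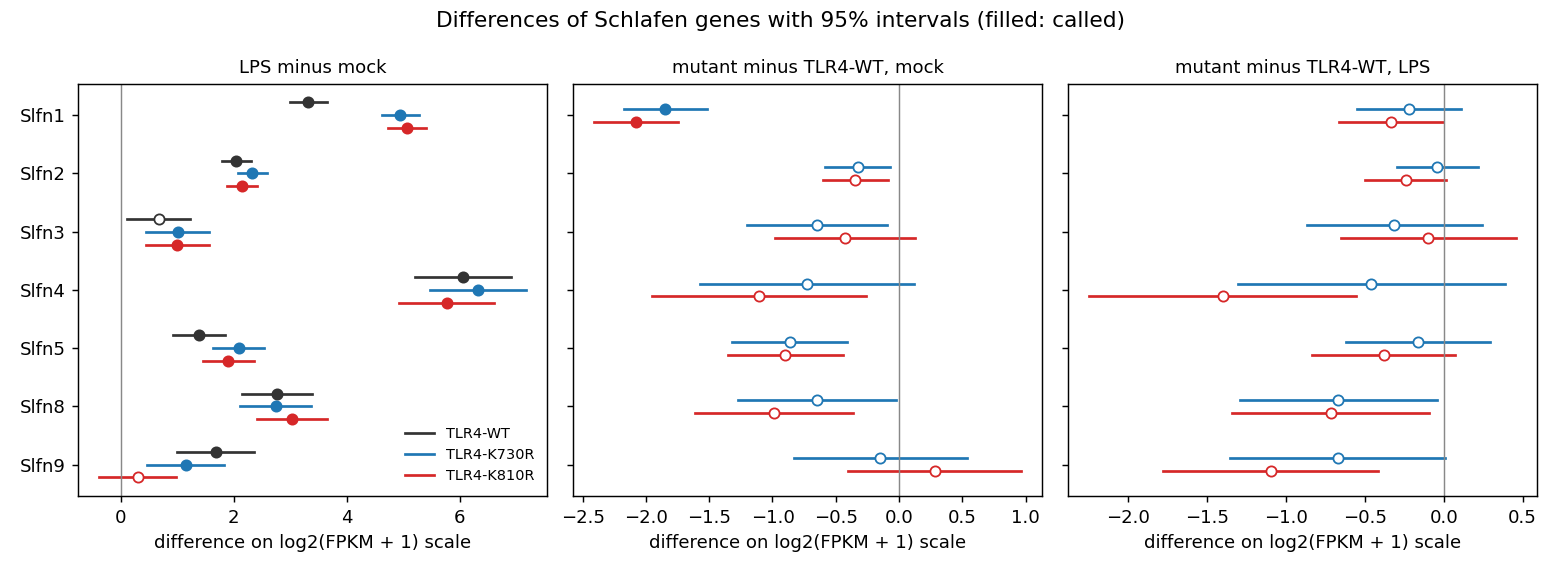
Differences of each Schlafen gene on the log2(FPKM + 1) scale with 95% intervals from limma, for LPS against mock in each genotype (left), and for each mutant against TLR4-WT in mock (middle) and LPS (right). Filled points passed an adjusted p of 0.01; in the comparisons of mutants with TLR4-WT the only filled points are those of Slfn1 in mock.

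Before LPS, Slfn1 was lower in both mutants than in TLR4-WT. Its mean was 1.36 ± 0.181 FPKM in TLR4-K730R and 1.02 ± 0.297 in TLR4-K810R, against 7.50 ± 1.07 in TLR4-WT, ratios of 0.181 and 0.136. The limma difference was -1.85 ± 0.16 (adjusted p = 1.29e-05) for TLR4-K730R and -2.08 ± 0.16 (1.05e-06) for TLR4-K810R. By position, 1 of 7 members was called lower in each mutant, against 0.271% of all genes tested in TLR4-K730R and 0.667% in TLR4-K810R. By gene number, which leaves out Slfn1, limma called 0 of 4 members in each mutant (0.216% and 0.649% of all genes), with 3 of 4 at an unadjusted p under 0.05 in each, as were 7.7% and 14.1% of all genes. All these comparisons share the TLR4-WT mock libraries.

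Other members pointed the same way without passing the threshold. The mutant libraries lay below all TLR4-WT libraries for 4 of 7 members in TLR4-K730R (Slfn1, Slfn2, Slfn5 and Slfn8), a pattern that 7.5% of all genes showed. In TLR4-K810R this held for 5 of 7 (the same 4 and Slfn4), against 6.79% of all genes. For Slfn5 the difference was -0.87 ± 0.21 (adjusted p = 0.12 in limma) in TLR4-K730R and -0.90 ± 0.21 (0.0276) in TLR4-K810R. For Slfn8 it was -0.64 ± 0.29 (0.62) and -0.99 ± 0.29 (0.0895), and for Slfn2 -0.33 ± 0.12 (0.516) and -0.34 ± 0.12 (0.172). Slfn9 was the exception in TLR4-K810R, where all 3 mock libraries lay above those of TLR4-WT (0.28 ± 0.32, adjusted p = 0.781), as for 13.9% of all genes, without being called.

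For Slfn4 the mock comparison depended on how its gene number was read. With its own events the difference was -0.72 ± 0.40 (adjusted p = 0.74 in limma) in TLR4-K730R and -1.11 ± 0.40 (0.18) in TLR4-K810R. With every event filed under its number, including the last exon of Slfn1, it was -1.72 (0.00731) and -2.14 (0.000468), both of which would be called. The exon of Slfn1 alone held 6.27 to 8.18 FPKM in mock-treated TLR4-WT, more than the 1.60 to 3.33 FPKM of the events of Slfn4.

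**Figure D4:**
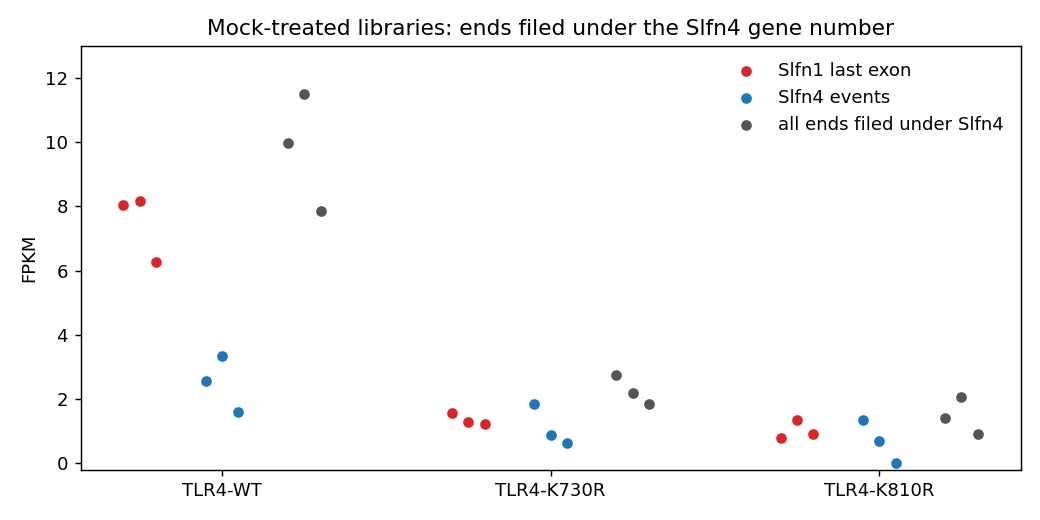
FPKM of the events filed under the Slfn4 gene number in the mock-treated libraries of each genotype, with the last exon of Slfn1 in red and the events that lie in Slfn4 in blue. Grey points are the value of that number without a position filter. That value is the larger of its first-exon and last-exon sums, so it need not equal red plus blue. Each point is a library; in TLR4-WT the grey points reach 7.87 to 11.5 FPKM, and most of that height is the red exon.

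After LPS no member differed between a mutant and TLR4-WT by the threshold. For TLR4-K730R limma called 0 of 7 members and 0% of all genes tested. At an unadjusted p under 0.05 there was 1 member (Slfn8), where 7.58% of all genes were. For TLR4-K810R it called 0 of 7 and 0.126% of all genes. At an unadjusted p under 0.05 there were 4 (Slfn1, Slfn4, Slfn8 and Slfn9), where 21.6% of all genes were. All 3 TLR4-K810R libraries lay below those of TLR4-WT for 4 of 7 members (Slfn2, Slfn4, Slfn8 and Slfn9), which 7.81% of all genes did. The differences were -1.40 for Slfn4 (95% interval -2.25 to -0.55, adjusted p = 0.0701), -1.10 for Slfn9 (-1.78 to -0.41, 0.0763), -0.72 for Slfn8 (-1.34 to -0.09, 0.182) and -0.24 for Slfn2 (-0.50 to 0.02, 0.26). The third TLR4-WT library, at 118 FPKM of Slfn4, decided the call for that gene: without it the difference was -1.87 and was called (adjusted p = 0.00769), and with library weights it was -1.67 (0.00606). For Slfn1 the interval was -0.55 to 0.11 in TLR4-K730R and -0.66 to -0.0049 in TLR4-K810R. Between the mutants, 0 of 7 members were called in mock (0.087% of all genes) or LPS (0.087%). At an unadjusted p under 0.05 there were 0 in mock (10.3% of all genes) and 1 in LPS (18.6%), Slfn4, at -0.94 ± 0.40 (adjusted p = 0.218).

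The size of the LPS response of Slfn1 differed between genotypes. Its log2 response was larger than in TLR4-WT by 1.63 ± 0.22 in TLR4-K730R (adjusted p = 0.00473 in limma) and by 1.74 ± 0.22 in TLR4-K810R (0.000957), while the mutants differed from each other by 0.12 ± 0.22 (0.917). This was 1 of 7 members called in each, against 0.0484% and 0.135% of all genes. Of the levels behind it, those in mock were called different from TLR4-WT and those after LPS were not. In TLR4-K730R the call was lost with only the compared groups in the fit (0.0396) and in 7 of 12 fits with 1 library left out (0.0124 to 0.0245). These were K730R LPS replicates 1, 2 and 3, K730R mock replicates 2 and 3, and WT mock replicates 1 and 2. In TLR4-K810R it was lost with only the compared groups in the fit (0.0114) and in 0 of 12 fits with a library left out. For Slfn5 the differences of 0.70 ± 0.30 (adjusted p = 0.681) and 0.52 ± 0.30 (0.493) were not called.

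The genes whose pattern over the 18 libraries was most like that of Slfn1 were Ifit3 (Pearson r = 0.997), Ifit1 (0.996) and Zbp1 (0.996). Ifit1 and Ifit3 encode interferon-induced RNA-binding proteins and Zbp1 a sensor of Z-form nucleic acid. Slfn2 was most like Ms4a6d (0.995), Cd274 (0.994) and Ms4a4c (0.993), Slfn4 most like Trim21 (0.995), Phf11b (0.994) and Ms4a4c (0.993), and Slfn5 most like Dck (0.988) and Ifi211 (0.987). The closest genes to Slfn8, by r, were Ifi211 (0.986) and Gbp9, to Slfn9 Cxcl11 (0.962), and to Slfn3 Ggta1 (0.879). Among the members, r ranged from 0.559 (Slfn3 and Slfn9) to 0.991 (Slfn2 and Slfn4). These correlations describe libraries that share the treatment.

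The interferon-stimulated genes were counted in the same comparisons as Slfn1. Of 31 tested members of a list of 33, 27 were called higher after LPS in TLR4-WT, 30 for TLR4-K730R and 30 for TLR4-K810R, with medians of 3.49, 3.93 and 3.95. The shares of all genes called higher by gene number were 10.4%, 9.32% and 9.08%. In mock, 10 were called lower for TLR4-K730R (0.216% of all genes) and 18 for TLR4-K810R (0.649%), with medians of -1.16 and -1.44, where the median of all genes tested was 0.03 and 0.07. Ifit3 stood at 32.9 ± 2.55 FPKM in mock-treated TLR4-WT, 6.41 ± 0.700 for TLR4-K730R and 3.89 ± 0.288 for TLR4-K810R. Its log2 difference in mock was -2.20 (adjusted p = 2.41e-06 in limma) and -2.79 (1.47e-07). After LPS 0 of the list were called for TLR4-K730R and 1 was called lower for TLR4-K810R (0.0824% of all genes), with medians of -0.32 and -0.71. The LPS response was called larger than in TLR4-WT for 3 of the 31 in each mutant (Ifit3, Oas3 and Zbp1), against 0.0412% and 0.103% of all genes, with medians of 1.01 and 1.08. For Ifit3 the difference of response was 2.0 (adjusted p = 0.00103 in limma) in TLR4-K730R and 2.17 (0.000231) in TLR4-K810R.

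Of 10 tested genes of interferon signalling, 0 were called in the differences of response in which Slfn1 was, with Irf7 (adjusted p = 0.0362 and 0.0343 in limma) and Usp18 (0.0362 and 0.0171) at an adjusted p below 0.05. In mock, 2 of the 10 were called lower in each mutant, where 0.216% and 0.649% of all genes were: Irf7, the transcription factor that amplifies interferon production, and Usp18, which restrains the interferon receptor. Irf7 held 110 ± 33.0 FPKM in mock-treated TLR4-WT, 14.8 ± 12.1 for TLR4-K730R and 15.2 ± 2.75 for TLR4-K810R. Irf3, the factor that TRIF activates first, differed by 0.06 (adjusted p = 0.982) and 0.14 (0.831). After LPS 7, 6 and 7 of the 10 were called higher in TLR4-WT, TLR4-K730R and TLR4-K810R (10.4%, 9.32% and 9.08% of all genes), and Jak1, a kinase of the receptor, was called lower in TLR4-K730R by -0.34 (0.00289).

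NF-kappaB targets, the other main branch of TLR4 output, were counted for the LPS responses and the mock comparisons only. Of 18 tested of 20, 18 were called higher after LPS in TLR4-WT, 17 for TLR4-K730R and 18 for TLR4-K810R, against 10.4%, 9.32% and 9.08% of all genes. In mock 0 were called for TLR4-K730R and 1 was called lower for TLR4-K810R (0.216% and 0.649% of all genes), with medians of 0.20 and -0.05. Of 7 tested genes of a list on RNA cutting and antiviral defence, functions also described for Schlafen proteins, 5 were called higher after LPS in TLR4-WT and 4 in each mutant, and 0 were called in mock. Rnh1, the ribonuclease inhibitor and the member of that list that blocks RNA cutting, was called lower after LPS in each genotype (-1.79, -1.68 and -1.67). Eif2ak2, the kinase PKR, and Zc3hav1, the zinc-finger antiviral protein, were among the genes called higher in each genotype.

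The genes around the cluster were read in the same fits. Within 200 kb of the outermost members the annotation holds 35 other genes, of which 8 were tested. After LPS 0 of these 8 were called in TLR4-WT or TLR4-K810R, a count near the background, since 10.4% and 9.08% of all genes were called higher and less than 1 of 8 would be at that share. In TLR4-K730R the pseudogene Slfn10-ps was called higher (1.23, adjusted p = 0.00325). Slfn10-ps stood at 2.97 to 5.80 FPKM in mock-treated TLR4-WT and 7.73 to 12.7 after LPS (0.98, adjusted p = 0.0146), and shared 19.7% of its stretches of 50 bases with other family genes.

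Exon choice was read for Slfn3, Slfn5 and Slfn8, the members with an exon whose skipping was listed in all 18 libraries. A 66-base exon of Slfn5 (82954717 to 82954782) was included in 71.2% to 75.2% of its FPKM in mock-treated TLR4-WT and in 79.4% to 81.4% after LPS, ranges that did not overlap. In TLR4-K730R the ranges were 76.3% to 78.7% and 58.2% to 78.6%, and in TLR4-K810R 61.8% to 77.9% and 75.6% to 77.7%, which overlapped. A 116-base exon of Slfn8 (83019913 to 83020028) ranged from 0.0% to 51.5% over the libraries. In TLR4-K730R its share was 0.0% to 31.9% in mock and 43.8% to 50.4% after LPS, without overlap, while the ranges overlapped in TLR4-WT (8.06% to 15.8% and 15.7% to 51.5%) and TLR4-K810R (0.0% to 37.6% and 0.0% to 44.4%). A 167-base exon of Slfn3 (83194043 to 83194209) was scattered, at 41.8% to 99.8% in mock-treated TLR4-WT and 49.5% to 99.9% after LPS. No test was run on these shares. How often such ranges fail to overlap among all skipped exons was not counted, so no change of exon choice is claimed.

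The libraries carried macrophage markers in all groups, summing to 11600 to 14800 FPKM in mock and 7290 to 10100 after LPS over 7 listed of 9. The macrophage marker Cd14 had no usable event in any mock-treated library. It had none in LPS-treated TLR4-WT or TLR4-K730R either, and ranged from 0 to 463 FPKM in LPS-treated TLR4-K810R. Markers of T cells, in which Schlafen genes were first described, stayed at or below 1.56 FPKM in sum, and all 7 listed were below 1 FPKM everywhere. The sum of 6 listed mesothelium and fibroblast markers was 12.8 to 26.0 FPKM in mock-treated TLR4-WT, 31.5 to 37.6 in TLR4-K730R and 56.7 to 143 in TLR4-K810R. The sum of 5 listed intestinal epithelium markers was 0.118 to 0.594, 6.04 to 30.6 and 9.01 to 45.8 FPKM, and the defining marker Cdx1 was at or below 0.118 FPKM in every library. Of resident peritoneal macrophage and monocyte markers, Gata6 (1.64, adjusted p = 0.00381 in limma) and Plac8 (1.79, 0.00381) were called higher and Ly6c2 lower (-1.86, 0.000388) in mock-treated TLR4-K810R. In the order TLR4-WT, TLR4-K730R, TLR4-K810R, the mock sums were 17.5 to 22, 11.8 to 15.3 and 12.2 to 20.1 FPKM for 5 listed resident macrophage markers and 35.9 to 49.4, 36.2 to 41.4 and 27.9 to 33.8 for 5 listed monocyte markers. Beside the lower Slfn1, the mesothelium and fibroblast sum and the intestinal sum were higher in both mutants. The resident macrophage sum lay below TLR4-WT without overlap in TLR4-K730R only, and the monocyte sum in TLR4-K810R only. Single markers of the resident macrophage and monocyte lists went both ways in TLR4-K810R. The part of any of these markers in the mock difference of Slfn1 was not tested. In such bulk samples fewer cells of a type and less RNA per cell cannot be told apart. After LPS, the sum of 5 listed monocyte markers rose from 27.9 to 49.4 FPKM in mock to 232 to 492 and that of 8 neutrophil markers from 72.6 to 99.5 to 219 to 289, and their part in the Schlafen rise was not tested. After LPS most of these sums came from Ly6c2 (5.27 to 37.5 FPKM over the mock-treated groups, at least 204 after LPS) and S100a8 (at most 45.1 and at least 165). Vcan was also called higher in each genotype (3.35, 2.85 and 2.18) and Plac8 in TLR4-WT (3.33). Other listed markers were not called higher: Ccr2 was called lower for TLR4-K730R (-1.36) and TLR4-K810R (-2.08), Retnlg was called lower in TLR4-WT (-1.58), and F13a1 was not called in any genotype. Of the 8 neutrophil markers, Ly6g (at most 0.644 FPKM), Cxcr2 (at most 0.132) and Ngp (at most 0.121) stayed below 1 FPKM in every library.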

How the data were processed

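RNA-seq libraries of 6 groups of 3 were grouped by their labels. Per the files, the authors deposited FPKM for single transcript events (20 kinds, 80071 to 90401 lines per library) with an Ensembl gene number; the aligner and counting program are not given in the sources used here. The submitters' processing notes name hg18, a human build, whereas 94.04% of known first-exon and last-exon events overlap the gene they name in GRCm38 (GENCODE), which was used. Events without expression are not listed, and depth is unknown, so values of low genes have a precision that cannot be stated.

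A gene was given whichever was larger of the FPKM summed over its first exons and over its last exons, from events in the span and on the strand of the named gene, which dropped 6.24% of the FPKM. Assignment by position (added after seeing the data) moved 4.86% of the FPKM and left 2.046% without a gene. Genes that reached 1 FPKM in 3 or more libraries were tested with limma 3.58.1 (R 4.3.3) on log2(FPKM + 1), all groups in one fit, with Benjamini-Hochberg adjustment and an intensity trend in the empirical Bayes step. Differences on this scale understate the change of low genes. The test was checked on simulated data. Motifs, shared stretches and identities were computed with Python 3.11.15 and Biopython 1.88 from RefSeq promoters and GENCODE transcripts.

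The members and lists were chosen with earlier results of these data known. Named beside the members were the 3 tested genes most like each, other Schlafen genes, cluster neighbours called after LPS, and genes of lists for interferon signalling, interferon-stimulated genes, NF-kappaB targets and RNA-cutting factors. Replicate numbers did not pair the libraries: over 45 pairs the correlation of deviations ranged from -0.32 to 0.0993. Alternatives for pseudocount, filters, scaling, trend, weights, threshold, exon sums, block and left-out libraries were tried. Slfn14, Slfnl1 and some other genes that the rules would name are not reported here.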

Additional observations from a re-analysis of the deposited data

Results flagged for a closer look

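The LPS response of Slfn1 differed between genotypes by the test of the difference itself. On the log2(FPKM + 1) scale it was larger by 1.63 in TLR4-K730R and by 1.74 in TLR4-K810R than in TLR4-WT (adjusted p = 0.00473 and 0.000957 in limma). With only the compared groups in the fit neither was called (0.0396 and 0.0114), and without single libraries the call was lost in 7 of 12 fits for TLR4-K730R and 0 of 12 for TLR4-K810R. Every mock-treated mutant library lay below every mock-treated TLR4-WT library for this gene. The same libraries had higher sums of mesothelium, fibroblast and intestinal markers, whose part in this was not tested.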

How the results depend on the processing

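The fits with the replicate number as a block changed the call of Slfn9 after LPS in TLR4-K730R (1.15, adjusted p = 0.0107) and no other call, giving 6, 6 and 6 of 7 members after LPS by position and 3, 4 and 4 of 4 by gene number in TLR4-WT, TLR4-K730R and TLR4-K810R. The mock difference of Slfn1 was called under every alternative that gave it a value (adjusted p at most 0.00842 and 0.00742).

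With events assigned by position, 7 and 6 members were called after LPS in TLR4-K730R and TLR4-WT, and 1 in each mock comparison with TLR4-WT and each difference of response. First-exon sums, in which Slfn1 has no value, gave 0 in these last 4, and fits of only the groups compared gave 0 for both differences of response. Without the position filter, 1 member (Slfn4) was called in each mock comparison by gene number. In the mock comparison of TLR4-K810R, 2 members by position and 1 by gene number were called at an adjusted p below 0.05 or with library weights; with LPS, weights gave 1 in both tables. Leaving out single libraries gave 0 to 1 members for LPS-treated TLR4-K810R in both tables and 0 to 1 for the difference of response of TLR4-K730R by position. The cause was not tested.

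Signs reversed only among uncalled differences. For the difference of response between TLR4-K810R and TLR4-WT, Slfn4 reached 1.06 without the position filter and 0.95 with a pseudocount of 0.1, and Slfn2 -0.016 with weights. For that between TLR4-K730R and TLR4-WT, Slfn4 was -0.11 with weights, and Slfn8 0.043 with median-of-ratios scaling and 0.035 with a pseudocount of 0.1. For that between the mutants, Slfn1 was -0.074 with median-of-ratios scaling and Slfn4 0.26 with a pseudocount of 0.1. With LPS, Slfn2 was 0.018 in TLR4-K730R with median-of-ratios scaling, and Slfn8 between the mutants 0.30 on first exons and 0.070 with weights. In mock, Slfn2 between the mutants was 0.0019 with weights. Without single libraries, the ranges that crossed 0 were -0.13 to 0.077 (Slfn2) and -0.41 to 0.017 (Slfn5) for LPS-treated TLR4-K730R and -0.20 to 0.041 (Slfn3) for LPS-treated TLR4-K810R, each against TLR4-WT. Between the mutants they were -0.051 to 0.024 (Slfn2) and -0.11 to 0.0079 (Slfn5) in mock, -0.091 to 0.39 (Slfn3) and -0.44 to 0.29 (Slfn8) with LPS, and -0.31 to 0.17 (Slfn3) and -0.10 to 0.63 (Slfn8) for the response. For the response of TLR4-K730R against TLR4-WT they were -0.20 to 0.55 (Slfn4) and -0.36 to 0.37 (Slfn8).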
